A study of Mus musculus with 6 samples.

Results

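Islet macrophage genes are the transcripts that mark the resident macrophages of the pancreatic islet in bulk islet RNA. The 10 genes described are Cd68, C1qa, C1qb, C1qc, Adgre1, Csf1r, Lyz2, Cd74, H2-Aa and Ptprc, matched by their symbol in GENCODE release vM21. All 10 were found among 54119 annotated genes with transcripts in the data, and all 10 passed the filter on low counts, as did 16430 genes in all. Each of 6 libraries came from the islets of 1 male C57BL/6 mouse at postnatal day 24, and 3 of the mice were Dpy30 knockouts and 3 controls. Between 100 and 200 islets per mouse were picked by hand, so each library holds endocrine cells together with the vessel, stroma and immune cells that stayed with the islet. Dpy30 encodes a core subunit of the methyltransferase complexes acting on lysine 4 of histone H3, and the series asks what this mark does in the functional maturation of islet endocrine cells. No label gives the Cre driver, the deleted exons or the alleles of the controls, so whether the islet macrophages themselves lost Dpy30 was not known here.

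Islets hold a small resident macrophage population that lies along the capillaries and is known to express major histocompatibility complex (MHC) class II molecules at high level. These cells depend on CSF1R, the receptor of colony stimulating factor 1, and they make complement C1q, lysozyme and the lysosomal glycoprotein CD68. C1q is built from equal numbers of A, B and C chains and starts the classical complement pathway. CD74 is the invariant chain, which escorts newly made class II molecules such as H2-Aa to the endosome. In bulk RNA, fewer macrophages and less of a transcript per macrophage cannot be told apart.

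Estimated reads per library were 22694892, 17131515 and 23976598 in knockout replicates 1 to 3 and 25208847, 25354384 and 24575889 in control replicates 1 to 3. The label of each library was checked on exon 4 of Dpy30 (chromosome 17, 74307720 to 74307862, GRCm38), an exon picked with earlier results of these data known. Transcripts without it held 82.2, 81.0 and 80.5% of Dpy30 reads in the knockout libraries, against 5.24, 0.439 and 3.78% in the control libraries. The summed level of the 8 endocrine hormone and granin genes was 108174 to 157703 CPM (reads scaled by library size) in knockout islets and 238981 to 319917 CPM in control islets. Knockout replicate 2 stood apart: it had the fewest reads, and the predicted gene Gm42418 took 158399 CPM there, against 1015 to 2145 CPM in the other 5 libraries. 

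The promoters of members are shown for Cd68 and Lyz2, the members with the largest positive changes, and for C1qb and C1qc, the neighbours of C1qa, which had the largest negative change. They come from the RefSeq promoter table on GRCm38.p6, which matched 6 of the 10 members; C1qa, Adgre1, Csf1r and Cd74 had no entry. The bases printed lie upstream of both the RefSeq and the GENCODE start of each gene, which is on the minus strand in each case. They are read 5′ to 3′ in the direction of transcription. Capitals mark GAGGAA, or TTCCTC on the other strand, the core bound by PU.1, the product of Spi1 and a factor that myeloid cells need.
Cd68, chr11:69666171-69666420: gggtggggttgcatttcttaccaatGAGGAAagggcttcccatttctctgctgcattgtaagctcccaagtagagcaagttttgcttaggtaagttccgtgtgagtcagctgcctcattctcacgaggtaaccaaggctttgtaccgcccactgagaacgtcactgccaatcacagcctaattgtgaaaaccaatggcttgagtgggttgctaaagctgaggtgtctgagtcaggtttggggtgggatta
Lyz2, chr10:117282322-117282522: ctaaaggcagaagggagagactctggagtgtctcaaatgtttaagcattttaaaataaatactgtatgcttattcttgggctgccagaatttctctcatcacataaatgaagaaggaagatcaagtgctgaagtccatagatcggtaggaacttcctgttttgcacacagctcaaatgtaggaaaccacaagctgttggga
C1qb, chr4:136886201-136886450: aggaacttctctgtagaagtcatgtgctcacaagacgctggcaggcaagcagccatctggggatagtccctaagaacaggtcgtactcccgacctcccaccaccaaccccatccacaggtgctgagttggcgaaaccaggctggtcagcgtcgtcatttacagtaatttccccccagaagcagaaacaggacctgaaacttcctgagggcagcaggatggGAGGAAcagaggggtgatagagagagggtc
C1qc, chr4:136893066-136893164: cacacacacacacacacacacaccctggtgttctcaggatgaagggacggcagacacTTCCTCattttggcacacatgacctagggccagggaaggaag

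In the whole 300-base windows, GAGGAA or its reverse complement was found 2 times for Cd68, 1 time each for C1qb and C1qc, 1 time in 1 of the 2 Ptprc windows, and not for Lyz2 or H2-Aa. Of all 32851 windows in the table, 28.3% held it. The CCAAT box, or ATTGG, was found 3 times for Cd68 and 1 time for H2-Aa, and in 37.4% of all windows. The AP-1 motif TGANTCA was found 2 times for Cd68 and in 7.81% of all windows. A TATAAA box, or TTTATA, was found 1 time, in a Ptprc window, and in 13.6% of all windows. Matches of different motifs did not overlap in the members' windows. Such a match is a description of the letters and no evidence that a factor binds there.

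Of the 10 members, Cd68 rose and C1qa fell in knockout islets, while the other 8 did not pass the test (edgeR quasi-likelihood test over all 16430 genes, Benjamini-Hochberg adjusted p below 0.05). Over all tested genes this test called 9.95%, 4.10% higher and 5.84% lower. The median log2 fold change was 0.092 over the 10 members and 0.0060 over all tested genes. The knockout and control values did not overlap for 4 members, Cd68, Lyz2 and C1qc higher and C1qa lower in knockout islets, against 34.8% of all tested genes. The summed level of the 10 genes was 165.5 to 206.5 CPM in knockout islets and 159.8 to 309.8 CPM in control islets, so the sums overlapped.

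**Figure D1:**
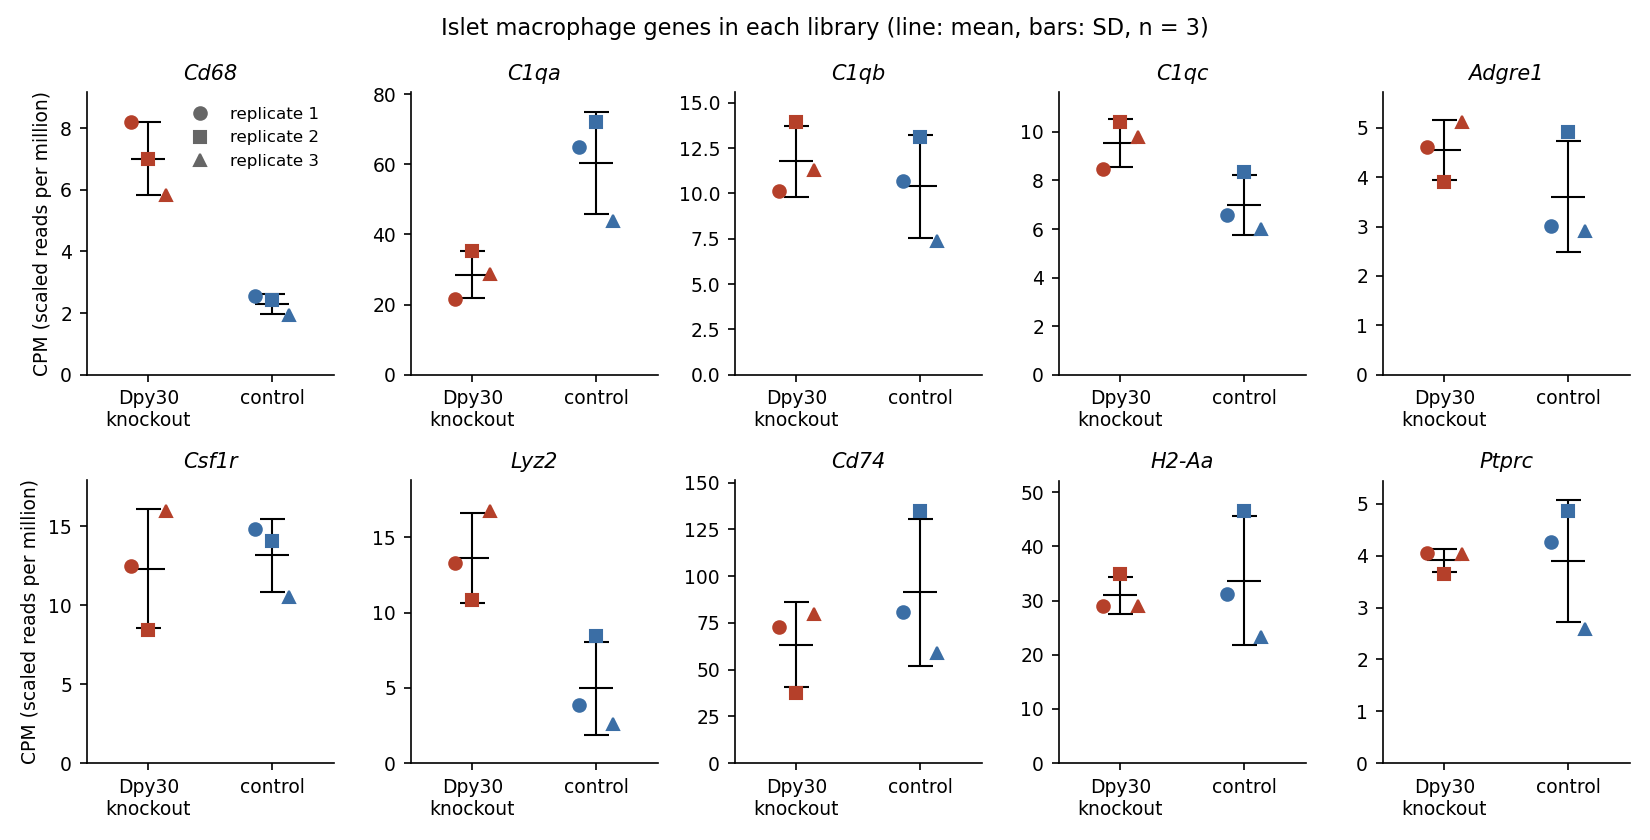
Level of each member in CPM (reads scaled by library size, linear axes from 0) in the 3 Dpy30 knockout and 3 control libraries. Points are libraries, shaped by replicate number, and lines and bars give the mean and SD. Knockout points lie above control points for Cd68, Lyz2 and C1qc and below them for C1qa, and overlap them for the other 6.

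Cd68, on chromosome 11 from 69664213 to 69666153 (GRCm38, GENCODE vM21), encodes macrosialin, a heavily glycosylated protein of macrophage lysosomes. It read 8.19, 6.99 and 5.83 CPM in knockout islets, against 2.55, 2.41 and 1.93 CPM in control islets. The lowest knockout library was thus more than 2-fold above the highest control library. The mean was 7.004 ± 1.18 CPM in knockout islets and 2.30 ± 0.324 CPM in control islets (SD, n = 3 each), a log2 fold change of 1.61 (SE 0.26, adjusted p = 0.00889, edgeR). The call was kept in all 6 fits that left out 1 library and in each of the 8 other settings tried. It rests on 204, 111 and 155 reads in the knockout libraries and 61, 56 and 47 reads in the control libraries. The authors' deposited table lists Cd68 at a log2 fold change of 1.48 and an adjusted p of 3.05e-06. The settings behind that table are not given, so its fold changes need not be on the same measure as those of edgeR. Some lie nearer to 0 (Adgre1 0.19, against 0.34 in edgeR) and some farther (Lgals3 1.86, against 1.76).

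Lyz2, on chromosome 10 from 117277331 to 117282321, encodes the lysozyme of myeloid cells, which cleaves bacterial cell walls. It read 13.3, 10.8 and 16.8 CPM in knockout islets, against 3.88, 8.48 and 2.59 CPM in control islets. The groups did not overlap, though control replicate 2 came close to knockout replicate 2. The log2 fold change was 1.46 (SE 0.42) and missed the threshold (adjusted p = 0.0659, edgeR). It passed without control replicate 2 (log2 fold change 2.07, adjusted p = 0.0162) and with DESeq2, with limma-voom, with library totals in place of TMM scaling and without the filter on low counts. With the replicate number as a block it missed again (1.59, adjusted p = 0.0504, edgeR). The authors' deposited table lists it at 1.22 (adjusted p = 0.00526). Its neighbour and close paralog Lyz1 read 0.12, 0 and 0.04 CPM in knockout islets and 0 in each control library, so few reads were assigned to it.

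C1qa, on chromosome 4 from 136895917 to 136898803, encodes the A chain of C1q. It read 21.7, 35.2 and 28.6 CPM in knockout islets, against 65.0, 72.0 and 43.98 CPM in control islets. Every knockout library lay below every control library. The mean was 28.5 ± 6.72 CPM in knockout islets and 60.3 ± 14.6 CPM in control islets (SD, n = 3 each), a log2 fold change of -1.08 (SE 0.24, adjusted p = 0.0266, edgeR). The change kept its sign in every setting, and its call held in 2 of the 6 fits lacking 1 library, those without control replicate 3 (adjusted p = 0.0251, edgeR) and without knockout replicate 2 (0.0365). Without control replicate 1 or 2 the adjusted p was 0.0715 or 0.0860, and without knockout replicate 1 or 3 it was 0.0656 or 0.0906. In the authors' deposited table C1qa has a log2 fold change of -0.99 (adjusted p = 0.000402), and the 7 members besides Cd68, C1qa and Lyz2 have adjusted p-values of 0.244 to 0.853.

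The B and C chain genes, which lie beside C1qa on chromosome 4 (C1qb from 136880129 to 136886187, C1qc from 136889804 to 136893065), did not follow it. C1qb read 10.1, 13.9 and 11.3 CPM in knockout islets, against 10.7, 13.1 and 7.39 CPM in control islets. These ranges overlapped, with a log2 fold change of 0.18 (SE 0.25, adjusted p = 0.688, edgeR). C1qc read 8.47, 10.4 and 9.78 CPM in knockout islets, against 6.59, 8.35 and 6.00 CPM in control islets. Its groups were just apart, and its log2 fold change of 0.45 (SE 0.21) did not pass the test (adjusted p = 0.215, edgeR).

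The chain transcripts were unequal in level, and more so in control islets. Bulk RNA does not show which cells the C1qa reads came from, and the summed endocrine level also was lower in every knockout library (108174 to 157703 CPM) than in any control library (238981 to 319917 CPM). The part of endocrine cells in the fall of C1qa was not tested. Per length, C1qa had 32.3, 32.6 and 42.0 TPM (reads scaled by transcript length and library total) in knockout islets, against 70.8, 66.7 and 47.97 TPM in control islets. C1qb had 14.2, 12.2 and 15.7 TPM in knockout islets, against 11.01, 11.5 and 7.63 TPM in control islets. C1qc had 10.6, 8.09 and 12.0 TPM in knockout islets, against 6.05, 6.49 and 5.49 TPM in control islets. The A chain transcript was thus the most abundant of the C1q chains in every library.

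As a share of the summed C1q TPM, C1qa held 56.5, 61.6 and 60.2% in knockout islets, against 80.6, 78.8 and 78.5% in control islets. The shares did not overlap, and they spread by 2.62 percentage points (SD) in knockout islets and 1.121 in control islets around means of 59.5 and 79.3%. The difference was -19.8 percentage points, with p = 0.1 in an exact two-sided permutation test, the smallest value that 3 against 3 allows (adjusted p = 0.14 over the 7 shares and ratios tested). Leaving out 1 library at a time it ran from -20.9 to -18.4. C1qb held 23.5 ± 1.28% in knockout islets and 12.9 ± 0.603% in control islets, and C1qc 17.0311 ± 1.62% and 7.85 ± 1.06% (SD, n = 3 each), with the same exact permutation p of 0.1. The ratio of C1qa TPM to the mean of the other chains was 2.60, 3.21 and 3.03 in knockout islets, against 8.30, 7.42 and 7.31 in control islets. In reads, C1qa held 53.9% (95% exact Clopper-Pearson interval 50.7 to 57.0), 59.1% (55.9 to 62.3) and 57.6% (54.9 to 60.3) of C1q reads in knockout libraries, against 79.0% (77.1 to 80.8), 77.1% (75.2 to 78.8) and 76.7% (74.4 to 78.9) in control libraries. These intervals cover counting error only. C1qa has 1 annotated transcript, and no other annotated gene overlaps it on either strand.

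**Figure D2:**
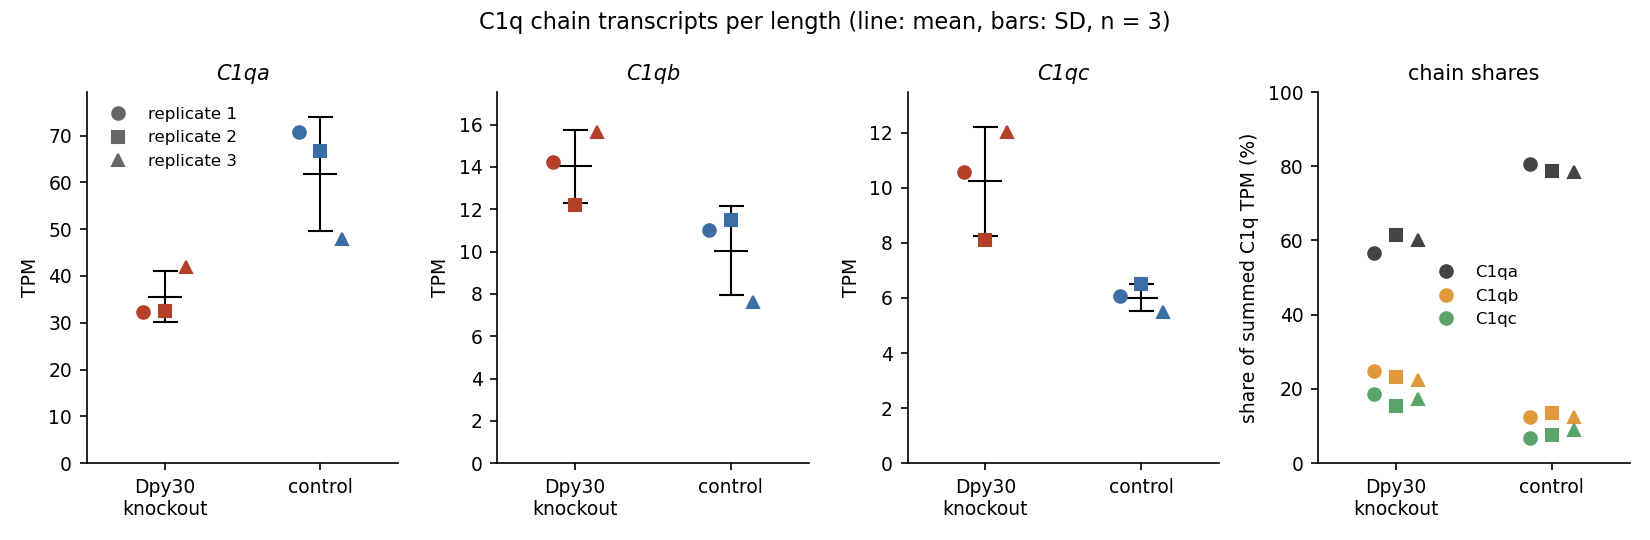
The first 3 panels give TPM of C1qa, C1qb and C1qc per library with mean and SD, and the last panel gives each chain's share of their summed TPM in percent. C1qa held 56.5 to 61.6% of the sum in knockout islets and 78.5 to 80.6% in control islets.

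The class II genes and the general leukocyte and macrophage markers did not pass the test. Cd74, on chromosome 18 from 60803848 to 60812652, read 73.0, 37.3 and 80.0002 CPM in knockout islets, against 80.6, 135.0 and 58.7 CPM in control islets. Its range was wide in both groups, lowest in knockout replicate 2 and highest in control replicate 2, and its log2 fold change was -0.53 (SE 0.36, adjusted p = 0.385, edgeR). Without knockout replicate 2 it was -0.26, and without control replicate 2 it was -0.14. H2-Aa, the class II alpha chain gene of the I-A molecule (chromosome 17, 34282744 to 34287823), read 28.9, 34.8 and 29.04 CPM in knockout islets, against 31.3, 46.6 and 23.2 CPM in control islets. These overlapped, with a log2 fold change of -0.12 (SE 0.24, adjusted p = 0.785, edgeR).

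Csf1r, the receptor on which these macrophages depend (chromosome 18, 61100598 to 61132149), read 12.5, 8.44 and 15.99 CPM in knockout islets, against 14.9, 14.1 and 10.6 CPM in control islets. The log2 fold change was -0.093 (SE 0.26, adjusted p = 0.855, edgeR), and 0.11 without knockout replicate 2. Adgre1, which encodes the surface antigen F4/80 (chromosome 17, 57358691 to 57483527), read 4.62, 3.91 and 5.12 CPM in knockout islets, against 3.00, 4.91 and 2.92 CPM in control islets. Its log2 fold change was 0.34 (SE 0.29, adjusted p = 0.496, edgeR), with 0.62 without control replicate 2 and 0.20 without control replicate 3. Ptprc, which encodes the pan-leukocyte phosphatase CD45 (chromosome 1, 138062861 to 138175708), read 4.05, 3.65 and 4.02 CPM in knockout islets, against 4.26, 4.87 and 2.59 CPM in control islets. The means were close, at 3.91 ± 0.222 CPM in knockout islets and 3.90 ± 1.18 CPM in control islets (SD, n = 3 each), and the log2 fold change was 0.0051 (SE 0.29, adjusted p = 0.994, edgeR). With 3 libraries a group and these SEs, a missed threshold does not show that levels were equal. Csf1r shares its locus with Hmgxb3 on the opposite strand, and the library kit named in the labels marks strand, but whether Salmon used it was not given.

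Per length the members spanned a wide range. In knockout islets Cd74 averaged 69.3 ± 36.0 TPM, C1qa 35.6 ± 5.53, H2-Aa 35.4 ± 5.51, C1qb 14.03 ± 1.74, Lyz2 13.7 ± 5.597, C1qc 10.2 ± 1.996, Cd68 7.48 ± 2.39, Csf1r 3.90 ± 1.84, Adgre1 1.91 ± 0.876 and Ptprc 0.986 ± 0.282 TPM. The control means in TPM were 72.6 ± 23.9 for Cd74, 61.8 ± 12.2 for C1qa, 30.8 ± 8.19 for H2-Aa, 10.04 ± 2.10 for C1qb, 6.01 ± 0.502 for C1qc, 3.75 ± 1.96 for Lyz2, 3.25 ± 0.661 for Csf1r, 1.97 ± 0.283 for Cd68, 1.10 ± 0.352 for Adgre1 and 0.909 ± 0.0622 for Ptprc (SD, n = 3 each). C1qa and H2-Aa lay within their spread of each other in knockout islets and apart in control islets, and C1qb and Lyz2 did so as well. Cd68 stood above Csf1r in the order of knockout islets and below it in that of control islets.

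Across libraries, all 10 members had their lowest control value in replicate 3, and 8 of the 10 their highest control value in replicate 2. No knockout library was highest or lowest for more than 5 members. The share of all tested genes with the same extremes is not reported here, so these counts do not mark a trait of the members. Knockout replicate 2 differed from the mean of knockout replicates 1 and 3 by 0.49 on the log2 CPM scale for C1qa, 0.38 for C1qb, 0.27 for H2-Aa and 0.19 for C1qc, whose transcripts have effective lengths of 853 to 1015 bases. The difference was -0.74 for Csf1r (3600 bases), -0.31 for Adgre1 (2836 bases) and -0.14 for Ptprc (4067 bases). Cd74 (1074 bases) stood at -1.03, Lyz2 (1129 bases) at -0.46 and Cd68 (1029 bases) at 0.017. Members of up to 1029 bases thus had positive differences, which fell with length. Those of 1074 bases or more had negative differences, in no order of length. The part of transcript length in these differences was not tested. A fit with a length offset kept both calls (Cd68 adjusted p = 0.0112, C1qa 0.0267, edgeR). That offset corrects only for changes of a gene's own effective length between libraries, so it cannot decide the question.

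**Figure D3:**
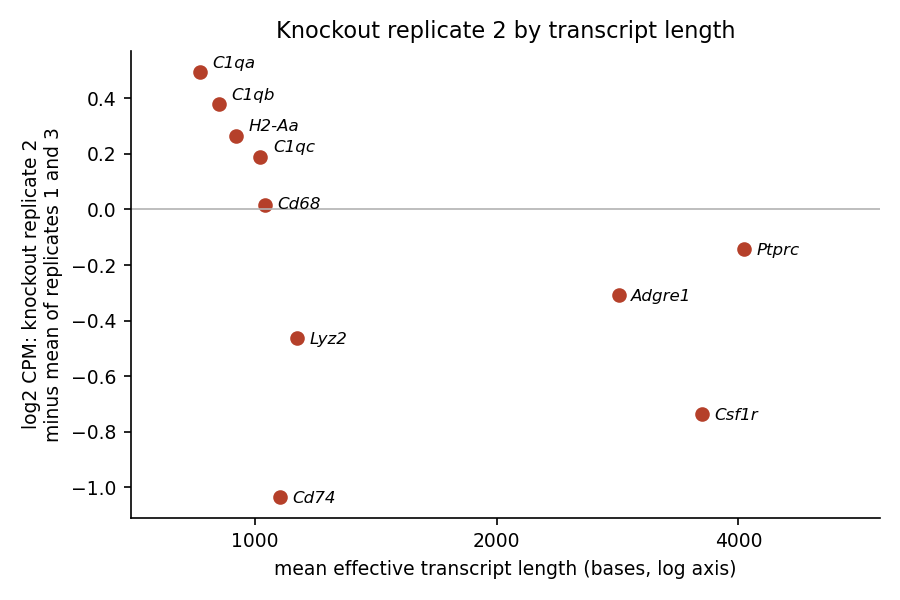
Difference in log2 CPM between knockout replicate 2 and the mean of knockout replicates 1 and 3 for each member, against its mean effective transcript length in bases on a log axis. The short C1q and H2-Aa transcripts lie at 0.19 to 0.49, and the long Csf1r and the short Cd74 lie lowest, at -0.74 and -1.03.

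Ratios within a library do not depend on library scaling. The log2 ratio of class II reads (Cd74 and H2-Aa) to macrophage marker reads (Cd68, Csf1r and Adgre1) was 2.01, 1.90 and 2.02 in knockout islets, against 2.45, 3.08 and 2.41 in control islets. The groups did not overlap and differed by -0.67 (exact two-sided permutation p = 0.1, the smallest possible), or by -1.05 in TPM. The log2 ratio of C1q reads to the same markers was 0.67, 1.62 and 0.88 in knockout islets, against 2.01, 2.13 and 1.90 in control islets, a difference of -0.95 (exact permutation p = 0.1), or -1.39 in TPM. Most C1q reads are C1qa reads, so this ratio largely repeats the fall of C1qa. With C1qb and C1qc alone above the line it was -0.44, 0.33 and -0.35 in knockout islets, against -0.24, 0.0029 and -0.20 in control islets, and the groups overlapped (difference -0.0097). Cd68, which rose, is part of the denominator. With Csf1r and Adgre1 alone below the line, chosen after the values were seen, the differences were -0.34 for class II (exact permutation p = 0.1) and -0.62 for C1q (p = 0.3), and the C1q groups then overlapped. That overlap came from knockout replicate 2, at 2.27 against 1.24 in each of the other knockout libraries and 2.09 to 2.30 in control libraries. Without it the C1q groups were apart and differed by -0.96. Without control replicate 2 the class II difference was -0.13.

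Transcript forms were compared for Cd74 and Ptprc. The longer form of the invariant chain includes exon 7 of Cd74 (192 bases, chromosome 18, 60811294 to 60811485), which adds a thyroglobulin-like domain. Transcripts with it held 24.9% (95% exact interval 23.0 to 27.01), 24.9% (21.6 to 28.7) and 31.03% (29.1 to 33.0443) of Cd74 reads in knockout islets, against 27.8% (25.8 to 29.9), 30.8% (29.2 to 32.4) and 26.1% (23.8 to 28.5) in control islets. The shares overlapped (difference -1.25 percentage points, exact permutation p = 0.6). CD45 forms differ in exons 4 to 6 of Ptprc, which naive B and T cells include and macrophages largely skip. Coding transcripts with any of these exons took 4.09, 0 and 4.47% of the 96, 54 and 105 coding Ptprc reads in knockout islets, against 1.42, 0 and 8.17% of the 101, 105 and 62 reads in control islets. A count of 0, with 3 reads as the limit, allows up to 5.56% in knockout replicate 2 and 2.86% in control replicate 2, and the exact 95% upper bounds are 6.60 and 3.45%. The shares overlapped (exact permutation p = 1), and Salmon divides reads between such forms by estimate.

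Among 20 other macrophage genes, 17 were tested, of which 5 rose and 1 fell, with a median log2 fold change of 0.60. The edgeR counts per list here and below stand beside 4.10% higher and 5.84% lower over all tested genes. With the replicate number as a block, 14.8% of all tested genes were called in either direction. Lgals3, which encodes the carbohydrate-binding galectin-3, read 3.73, 4.22 and 3.61 CPM in knockout islets, against 1.21, 1.16 and 1.03 CPM in control islets (log2 fold change 1.76, SE 0.27, adjusted p = 0.00715, edgeR). The mannose receptor gene Mrc1, a marker of tissue macrophages, read 2.69, 1.51 and 4.40 CPM in knockout islets, against 0.835, 0.732 and 0.739 CPM in control islets (1.91, adjusted p = 0.0293). Msr1, a scavenger receptor gene, had 10, 12 and 44 reads in the knockout libraries against 2, 1 and 3 reads in the control libraries. The Fc receptor gamma chain gene Fcer1g (1.16) and Mertk (1.00), a receptor for the clearance of dead cells, were called as well and are named beyond the naming rule. Sirpa, which encodes a receptor for the "do not eat me" signal CD47, fell to 63.02 ± 12.4 CPM in knockout islets, against 134.7 ± 26.3 CPM in control islets (SD, n = 3 each; log2 fold change -1.10, adjusted p = 0.0142, edgeR). That control mean is above those of all members, among them Cd74 (91.4 CPM) and Csf1r (13.2 CPM). Bulk RNA does not show which cells the Sirpa reads came from, and the part of endocrine cells in its fall was not tested. Leaving out knockout replicate 1 kept 3 genes called higher, leaving out knockout replicate 2 kept 4, and leaving out knockout replicate 3 or any 1 control kept 1. Lgals3 and Sirpa were called in all 6 such fits. Aif1, Tyrobp, Cx3cr1, Mpeg1 and Ctss are among the 11 not called.

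**Figure D4:**
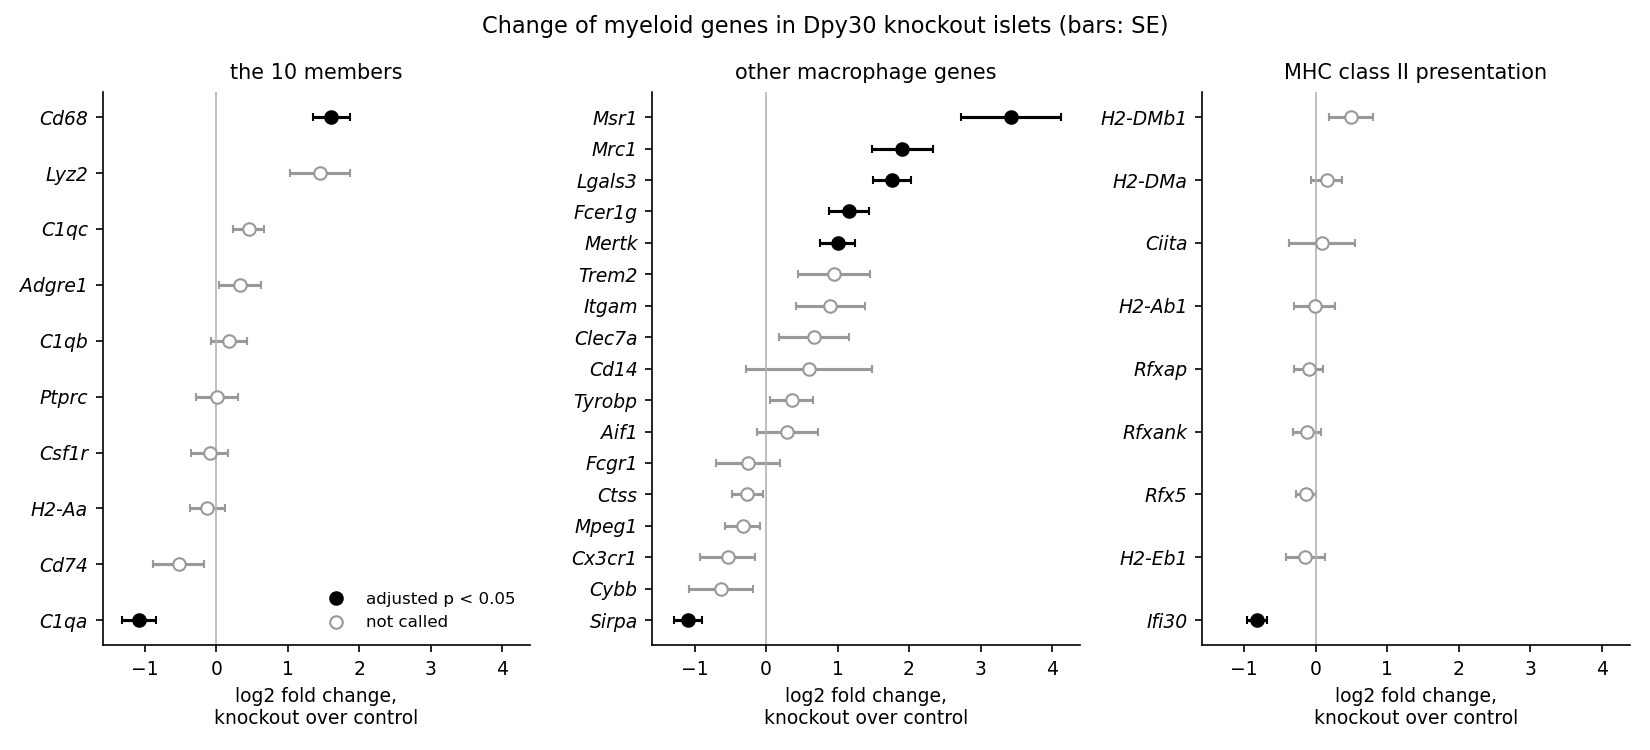
Log2 fold change of knockout over control with SE for the members, other macrophage genes and MHC class II presentation genes that were tested. Filled points passed the test (adjusted p below 0.05, edgeR). Cd68 and C1qa are filled among the members at 1.61 and -1.08, and Ifi30 at -0.82 among the class II genes.

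Of 12 genes of class II presentation besides the members, 9 were tested, and 1 was lower and 0 higher. Over all tested genes 5.84% were lower and 4.10% higher, and the median log2 fold change of the list was -0.10. The classical chain genes H2-Ab1 (-0.016) and H2-Eb1 (-0.14) and the class II activator gene Ciita (0.084) were not called. Ifi30, a lysosomal thiol reductase that prepares antigens, read 12.9, 14.1 and 14.8 CPM in knockout islets, against 24.95, 25.2 and 23.7 CPM in control islets (log2 fold change -0.82, SE 0.14, adjusted p = 0.0116, edgeR). Omitting control replicate 2 ended this call (edgeR adjusted p = 0.0503).

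Of the 7 myeloid growth factor and receptor genes 4 were tested, and edgeR called 0, with 4 at an unadjusted p below 0.05 and 1 called each by DESeq2 and limma-voom. The CSF1R ligand genes Csf1 (log2 fold change -0.45, adjusted p = 0.163) and Il34 (0.93, adjusted p = 0.112) did not pass in edgeR. Csf2ra, a receptor chain for granulocyte-macrophage colony stimulating factor, read 9.03, 20.2 and 10.3 CPM in knockout islets, against 25.5, 28.0 and 27.4 CPM in control islets (-1.04, adjusted p = 0.0622, edgeR). Its groups were apart, and it was called lower without knockout replicate 2 (-1.48, adjusted p = 0.0082, edgeR) and with the replicate block (-1.12, adjusted p = 0.0224). Of 10 tested macrophage transcription factor genes edgeR called 0, with 4 at an unadjusted p below 0.05, 2 called by DESeq2 and 0 by limma-voom. With the replicate block Irf8 was called higher (1.25, adjusted p = 0.0165, edgeR) and Bhlhe41 lower (-0.76, adjusted p = 0.0158). Spi1 read 1.20, 1.07 and 2.18 CPM in knockout islets, against 1.13, 1.59 and 1.11 CPM in control islets.

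Of 13 other complement genes 12 were tested, and 2 rose and 0 fell. C1s1, a protease subunit that binds C1q, rose to 26.4 ± 2.87 CPM in knockout islets, against 17.2 ± 2.03 CPM in control islets (SD, n = 3 each; log2 fold change 0.62, adjusted p = 0.0469, edgeR). Cd55, which encodes an inhibitor of the complement cascade, read 4.29, 5.86 and 9.82 CPM in knockout islets, against 2.63, 1.51 and 2.26 CPM in control islets (1.64, adjusted p = 0.0323, edgeR). C1s1 and Cd55 each passed in 1 of the 6 fits lacking 1 library, and with the replicate block 3 genes of the list were higher and 1 lower. Of 12 pan-leukocyte genes 2 rose and 0 fell, Dock2 (log2 fold change 1.66, adjusted p = 0.0239, edgeR) and Arhgdib (1.48, adjusted p = 0.0133). Without control replicate 3 or knockout replicate 3 neither was called. Ptpn6, a phosphatase gene, was called lower with the replicate block (-0.55, adjusted p = 0.0452, edgeR) and without knockout replicate 2 (-0.75, adjusted p = 0.0283). Of 5 tested Src family and Syk kinase genes, among them substrates of CD45, edgeR called 0, with 2 at an unadjusted p below 0.05, 1 called by DESeq2 and 0 by limma-voom. The lysosomal membrane gene Lamp1 was not called (log2 fold change 0.24, adjusted p = 0.387, edgeR).

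Most macrophage cytokine and chemokine genes were highest in the library numbered 1 of their group. Of 18 genes 14 were tested, and Il18 was called lower (log2 fold change -1.18, adjusted p = 0.0458, edgeR), a call lost with the replicate block (adjusted p = 0.0513) and in each of the 6 fits without 1 library. The block in turn called Il6 higher (1.61, adjusted p = 0.0402, edgeR), against 1.21 and an adjusted p of 0.634 without it. Il1b read 11.5, 1.70 and 1.43 CPM in knockout islets, against 13.7, 1.29 and 1.07 CPM in control islets. Il6 read 11.1, 0.882 and 0.564 CPM in knockout islets, against 5.22, 0.129 and 0.123 CPM in control islets. For these cytokines the libraries numbered 1 of both groups stood well above the rest. All 14 tested genes had their highest control value in replicate 1, and 10 of them their highest knockout value in replicate 1. The share over all tested genes is not reported here. For the 14 genes, the median of log2 CPM minus the mean of the 6 libraries was 1.36, -0.096 and -0.21 in knockout islets, against 1.75, -2.23 and -0.21 in control islets. Among the members, replicate 1 was the highest library for 2 of 10 in each group.

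**Figure D5:**
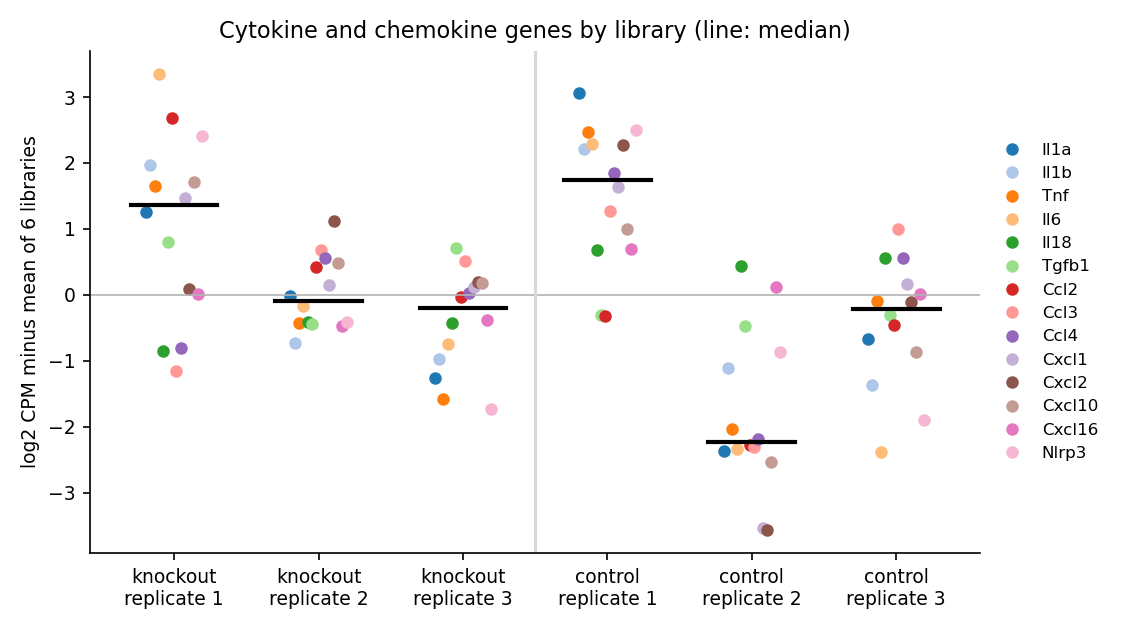
Log2 CPM minus the mean of the 6 libraries for the 14 tested cytokine, chemokine and inflammasome genes in each library. Points are genes and lines are medians. Medians of both libraries numbered 1 lie at 1.36 and 1.75, and control replicate 2 lies lowest at -2.23.

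Markers of T, NK and mast cells and neutrophils summed to low levels, while the sums for B cells, dendritic cells and monocytes were higher. These higher sums rest on few genes. Below 1 CPM in every library were 6 of 9 B cell, 5 of 7 dendritic cell and 3 of 5 monocyte genes. In the authors' table the dendritic cell gene Zbtb46 has a mean signal of 142, against 19.0 for Xcr1. The monocyte gene F13a1 has 121 there, against 42.2 for Plac8. Summed levels were 1.58 to 3.27 CPM in knockout islets and 0.944 to 2.02 CPM in control islets for 10 T cell genes, and at most 0.226 CPM in knockout and 0.0821 CPM in control islets for 6 NK cell genes. For 9 neutrophil genes they were 0.865 to 1.32 CPM in knockout and 0.904 to 1.17 CPM in control islets, with 4 genes at 0 reads in every library. Mast cell genes reached 0.263 CPM in 1 knockout library and were at 0 reads in the control libraries. The 9 B cell genes summed to 12.4 to 20.8 CPM in knockout and 11.5 to 22.7 CPM in control islets, mostly from Cd79a. The 7 dendritic cell genes summed to 5.66 to 12.8 CPM in knockout and 6.13 to 7.72 CPM in control islets. The 5 monocyte genes summed to 10.02 to 12.6 CPM in knockout and 3.80 to 6.16 CPM in control islets, without overlap, and 1 of 3 tested was called higher, Plac8 (log2 fold change 1.62, adjusted p = 0.0181, edgeR). DESeq2 and limma-voom each called 2 of these 3 genes, and 2 had an unadjusted p below 0.05 in edgeR. In edgeR, Plac8 passed in 3 of the 6 fits lacking 1 library, those without control replicate 1, knockout replicate 1 or knockout replicate 2.

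Summed acinar, endothelial and mesenchymal markers averaged higher in knockout islets, although the acinar and mesenchymal ranges overlapped. Acinar genes summed to 1887 to 10330 CPM in knockout and 628 to 2611 CPM in control islets (8 genes, 0 called by edgeR, DESeq2 or limma-voom, 5 at an unadjusted p below 0.05). Endothelial genes summed to 651 to 885 CPM in knockout and 506 to 616 CPM in control islets (7 genes, 2 higher, and 0 without any 1 library other than knockout replicate 2). Mesenchymal genes summed to 585 to 1123 CPM in knockout and 369 to 656 CPM in control islets (9 genes, 1 higher, and 9 with the replicate block). Of 5 tested duct genes 1 was higher, and of 6 Schwann cell genes edgeR, DESeq2 and limma-voom called 0, with 2 at an unadjusted p below 0.05. Their part in the rise of Cd68 and in the fall of C1qa was not tested.

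The 8 genes whose profile over the 6 libraries lay nearest to the mean profile of the members were Gpatch3, Atp2b2, Reck, Abcb6, Sorl1, Habp4, Psap and Ttc38, among 13085 candidates of at least 1 CPM. Their root mean square distance on the centred log2 CPM scale ran from 0.10 for Gpatch3 to 0.13 for Ttc38. Of the members themselves, Ptprc (0.13) and Adgre1 (0.14) lay nearest to that mean and C1qa (0.70), Cd68 (0.71) and Lyz2 (0.73) farthest. Psap, the gene of the lysosomal prosaposin, read 1263, 1108 and 1268 CPM in knockout islets, against 1116, 1266 and 943 CPM in control islets. The mean profile of the members was 0.10, 0.033 and 0.23 in knockout islets, against -0.11, 0.28 and -0.54 in control islets.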

How the data were processed

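Salmon output with estimated counts and TPM per transcript is what the authors deposited for every library, per the file headers. Trimmomatic, Salmon, DESeq2, GRCm38 and mm10 appear in the submitters' processing notes, with no version, annotation or setting. A comparison was deposited too, with log2 fold changes, p-values and a mean signal per gene, per the file headers. Their table of scaled gene values was not used.

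Transcripts were matched to GENCODE vM21 without version, 139852 of 140948, with 99.6 to 99.7% of reads. Gene sums of the estimated counts were rounded. filterByExpr (minimum count 10) left 16430 genes. TMM scaling and the quasi-likelihood test of edgeR 4.0.16 (R 4.3.3) followed, with group as the term and two-sided Benjamini-Hochberg adjusted p-values (threshold 0.05). CPM were taken over scaled library sizes (prior count 2 for log2 CPM), and the SE comes from the change and its F statistic. Alternatives used DESeq2 1.42.0, limma 3.58.1 (voom) and the settings of the closing section. The procedure was tested on simulated counts with 200 changed genes.

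Members and gene lists were chosen with earlier results of these data known. Named genes are the members, up to 4 genes of smallest p per list, the 8 nearest in profile, and genes beside a member's locus; other genes were named after their values were seen, and not every gene that the rule takes is printed. Same-numbered knockout and control libraries deviated together from their group means (correlations 0.427, 0.135 and 0.196, each over 0.1), although knockout replicate 2 correlated as much with control replicate 3 (0.14). By the rule that each exceeds 0.1 the libraries were treated as paired in an added block term; no label says what the number stands for. Each library is a separate mouse. Some genes of the lists are not reported here.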

Additional observations from a re-analysis of the deposited data

How the results depend on the processing

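The calls of Cd68 and C1qa, 2 members in all, were 1 to 2 members when 1 library was left out (C1qa was lost without control replicate 1 or 2 or knockout replicate 1 or 3), 2 with DESeq2 size factors, with the transcript length offset, without Gm42418 (a predicted gene that took many reads in knockout replicate 2) and with the replicate block, and 3, by the addition of Lyz2, with DESeq2, with limma-voom, with library totals and with no filter. Over all genes the 1634 calls became 737 to 1330 without 1 library, 2633 with DESeq2 and 2430 with the replicate block, which changed no call of a member. Library totals in place of TMM moved the log2 fold change of the median gene by 0.13. Directions that turned belong to members that were not called: Csf1r (0.070) and H2-Aa (0.013) with library totals, Ptprc with no filter (-0.014) and with the length offset (-0.23), and, without 1 library, C1qb (-0.017 to 0.38), Csf1r (-0.32 to 0.11), H2-Aa (-0.33 to 0.18) and Ptprc (-0.22 to 0.19). The difference in the share of the longer Cd74 form (-3.28 to 0.0172 percentage points) and of Ptprc forms with alternative exons (-1.94 to 2.14) turned sign too, and the causes were not tested. The C1q chain shares kept their direction in all settings. The ratio of C1q to macrophage markers (-0.95) was -0.0097 with C1qb and C1qc alone as numerator and turned to 0.33 with Csf1r and Adgre1 also as denominator, both chosen after seeing the data. For shares and ratios, 3 against 3 libraries cannot reach a p below 0.1. Depth limits Cd68, Adgre1 and Ptprc most, at 47 to 204 reads per library.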
